A study of Mus musculus with 14 samples.

Results

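MicroRNA levels in syngeneic mouse heart grafts, which were transplanted but not rejected, were compared with those of normal, untransplanted hearts. The comparison used 4 of the 14 TaqMan rodent microRNA cards of the series, which read 1 small RNA per well by real-time PCR. The syngeneic group held 3 pools of C57BL/6 hearts placed heterotopically (beside the recipient's own heart) in C57BL/6 recipients and taken on day 7. The normal group was a single pool of BALB/c hearts. The allogeneic group, whose values are given beside those of the members, held 3 pools of BALB/c hearts placed in C57BL/6 recipients and rejected, also taken on day 7. Mice were 8 to 10 weeks old, and each pool joined RNA of 3 animals, 100 ng from each. Of 375 microRNA assays on the card, 242 were compared, because they were detected at a threshold cycle (Ct, the PCR cycle at which signal appears) under 35 on every plate of at least 1 side. The other 133 assays were not compared, and 107 of these were detected on none of the 4 plates.

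The limits of the normal group touch every value below. Heart strain differed between the groups along with transplantation, so strain and transplantation cannot be told apart. The normal pool was also run on a day when no other heart plate was run, so run day and the normal group cannot be told apart. With 3 pools against 1, an exact permutation test cannot go below p = 0.25, and the normal pool has no spread of its own. The p-values therefore come from a limma fit over all 7 heart plates that assumes that the normal pool varies like the others, and they measure the spread between pools.

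MicroRNAs are short RNAs cut from hairpin precursors, of which the arm kept in the silencing complex pairs with messenger RNAs through its seed and lowers their translation or stability. Several are nearly restricted to a cell type, so that whole-organ RNA carries a readable share from each. In the heart, miR-1, miR-133 and the miRs hosted in myosin genes (miR-208, miR-208b and miR-499) come from cardiomyocytes, miR-126 from endothelium, miR-143 with miR-145 from smooth muscle, and miR-142 and miR-223 from leukocytes. miR-21 and the miR-34 family are known from stressed or injured myocardium. In whole-heart RNA, fewer cells of a type and less RNA per cell cannot be told apart.

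The mature sequences of the microRNAs that the results turn on are given from RefSeq (GRCm38.p6), under their current arm names, with the seed (bases 2 to 8) in capitals. The first set shows called rises, grouped by hairpin or cluster. The miR-142 arms lie at chr11:87756867-87756925 on the plus strand, and the miR-183 cluster at chr6:30165962-30169732 on the minus strand.
miR-21a-5p: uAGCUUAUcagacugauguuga
miR-34a-5p: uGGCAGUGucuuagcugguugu
miR-142a-5p: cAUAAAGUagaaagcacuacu
miR-142a-3p: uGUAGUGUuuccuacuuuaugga
miR-182-5p: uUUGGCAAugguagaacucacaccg
miR-183-5p: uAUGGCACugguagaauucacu
miR-96-5p: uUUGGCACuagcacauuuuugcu
miR-135a-5p: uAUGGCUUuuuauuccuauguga

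The second set shows both arms of the miR-342 hairpin (chr12, plus strand), because their values went apart.
miR-342-5p: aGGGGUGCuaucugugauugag
miR-342-3p: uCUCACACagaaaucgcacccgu

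The third set shows miR-499, the cardiac microRNA with the larger called fall, and called falls that share a seed or lie close together, with miR-30c-5p, which was not called, printed for its seed. miR-192 and miR-215 carry the same seed, UGACCUA, and each lies beside a copy of miR-194 (chr19:6264658-6264877 and chr1:185313325-185313630, plus strand). miR-384-5p carries the seed GUAAACA of miR-30a, miR-30c and miR-30e. miR-201 and miR-547 lie 226 bases apart at chrX:67988135-67988403 on the minus strand.
miR-499-5p: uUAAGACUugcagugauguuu
miR-192-5p: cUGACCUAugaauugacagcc
miR-215-5p: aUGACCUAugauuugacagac
miR-194-5p: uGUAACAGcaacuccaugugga
miR-384-5p: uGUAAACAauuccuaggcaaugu
miR-30c-5p: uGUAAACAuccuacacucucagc
miR-547-3p: cUUGGUACaucuuugagugag
miR-201-5p: uACUCAGUaaggcauuguucuu

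Levels below are log2 units above the plate's own reference, which is the mean of 210 microRNA assays detected on all 7 heart plates, and a difference of 1 is a 2-fold change. Assays that were undetermined or later than Ct 35 stand at that limit, so a difference against a side that was never detected is a bound and is written as "at least". Of the 242 assays, 46 (19.0%) were called at an adjusted p under 0.05, 28 higher in syngeneic grafts (11.6%) and 18 lower (7.44%). All 46 differed by more than 2-fold. In the same fit 125 of 241 assays (51.9%) were called between allogeneic grafts and normal heart, and 77 of 238 (32.4%) between allogeneic and syngeneic grafts, contrasts that share plates with this one. The median over all assays tested was −0.05, with 118 differences above 0 and 124 below. The normal level lay outside the range of the 3 syngeneic levels for 199 of 242 assays, against 19.0% called. The median SD among the 3 syngeneic pools was 0.27. The share of higher among all calls, 60.9% here, was 83.3% (20 higher, 4 lower) with scaling to MammU6, 75.6% (31 and 10) with snoRNA202 and 50.0% (19 and 19) with quantile normalization. These scalings moved the median of all assays to 0.29, 0.39 and −0.24.

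**Figure D1:**
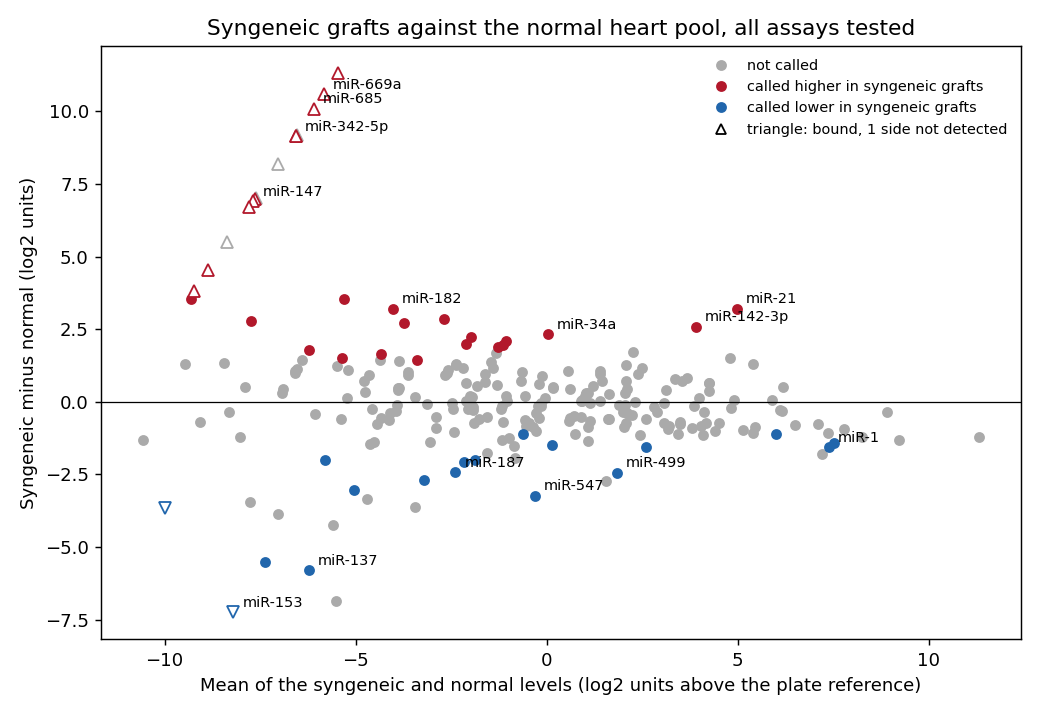
Difference between syngeneic grafts (mean of 3 pools) and the normal heart pool, in log2 units, against the mean of both levels, for 242 assays. Red points are the 28 called higher, blue the 18 called lower and grey the 196 not called. Open triangles are bounds and form the steep line at the upper left, where the normal pool was at the limit.

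Both assays of miR-142, which marks leukocytes, were called higher in the grafts, beside 11.6% of all assays tested. miR-142-3p, made in blood cells of all lineages, stood at 5.40, 5.41 and 4.81 in the 3 syngeneic pools and at 2.62 in the normal pool. The difference was 2.59 ± 0.35 (SE, adjusted p = 0.00327), 6.01-fold. Its partner arm miR-142-5p stood at −1.02, −1.10 and −1.68 against −4.10, a difference of 2.84 ± 0.42 (adjusted p = 0.00394). For both arms all syngeneic pools were above the normal pool by more than their own range, and the calls held under every alternative that tested them. The alternative without normal Ct values just below a whole cycle could not test miR-142-5p, whose normal Ct was 27.97. The allogeneic pools averaged 6.85 for miR-142-3p and −0.25 for miR-142-5p. In the authors' deposited table, which scales to snoRNA202 and sets the normal pool to 1, the relative quantity of miR-142-3p was 10.2, 8.79 and 6.05.

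Other leukocyte lists were mixed. miR-223, a microRNA of granulocytes and monocytes, stood at 4.80, 6.05 and 5.82 against 4.06 and was not called (1.50 ± 0.65, adjusted p = 0.136). miR-150, abundant in resting lymphocytes, stood at 5.94, 6.11 and 5.82 against 6.25, a difference of −0.29 with a 95% interval from −1.03 to 0.45. Of 5 myeloid assays 1 was called higher and none lower, beside 11.6% and 7.44% of all assays tested, with a median of 1.50. The call was miR-147, which macrophages induce on activation, detected on 3 of 3 syngeneic plates at Ct 26.2, 27.1 and 28.9 and not on the normal plate (at least 120-fold higher). miR-511, hosted in a macrophage receptor gene, was detected at Ct 24.1, 25.6 and 25.7 and not on the normal plate, at least 584-fold higher, yet was not called (adjusted p = 0.100). It was not detected in allogeneic pool 2 either, while the other allogeneic pools had Ct 26.2 and 26.1, and these values enter the shared estimate of the spread. miR-147 and miR-511 were compared only because the syngeneic side detected them. They had to come out higher and add no support for the list.

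Of 6 mature lymphocyte assays 1 was called higher and none lower, beside 11.6% and 7.44% of all assays tested. The list's median was −0.33, a sign that turned with scaling to MammU6 or snoRNA202. The call was miR-342-5p. This arm stood at −1.89, −1.83 and −2.26 (Ct 24.3, 25.2 and 26.0) and was not detected on the normal plate, a difference of at least 563-fold. The other arm of the same hairpin, miR-342-3p, was detected on the normal plate at Ct 20.7. It stood at 3.43, 4.35 and 3.92 against 3.18 and was not called (0.72 ± 0.55, 95% interval −0.59 to 2.03). The arms thus differed in detection on 1 plate only. miR-342-5p was compared only because the syngeneic side detected it, and it had to come out higher. Among the activated lymphocyte microRNAs, 3 of 8 were called higher, beside 11.6% of all assays tested, and none lower, with a median of 1.50. These 3 were the miR-183 cluster. miR-146b, an inflammation-induced microRNA, missed the threshold (2.89, 3.41 and 3.07 against 1.42, difference 1.70 ± 0.47, adjusted p = 0.050), and so did miR-146a with the same seed (1.29 ± 0.46) and miR-155 (1.16 ± 0.50).

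All members of the miR-183 cluster, known from sensory organs and, for miR-182, from activated helper T cells, were called higher. Of all assays tested, 11.6% were. miR-182 was detected on all 4 plates and stood at −2.99, −2.08 and −2.18 against −5.62 in the normal pool. Its difference was 3.20 ± 0.57 (adjusted p = 0.00867), 9.22-fold. miR-183 was detected at Ct 27.8, 27.1 and 27.9 and not on the normal plate, at least 104-fold higher. miR-96 was detected at Ct 29.5, 31.1 and 30.9 and not on the normal plate, at least 14.0-fold higher. miR-183 and miR-96 were compared only because the syngeneic side detected them. They had to come out higher, and their calls add no support of their own. In the allogeneic pools all 3 were higher again, at means of 0.23, −1.97 and −3.92 for miR-182, miR-183 and miR-96. Under quantile normalization 1 of the 3 calls was left, that of the bound miR-183. With the limit at Ct 32 the miR-96 difference was 0.83 and not called.

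**Figure D2:**
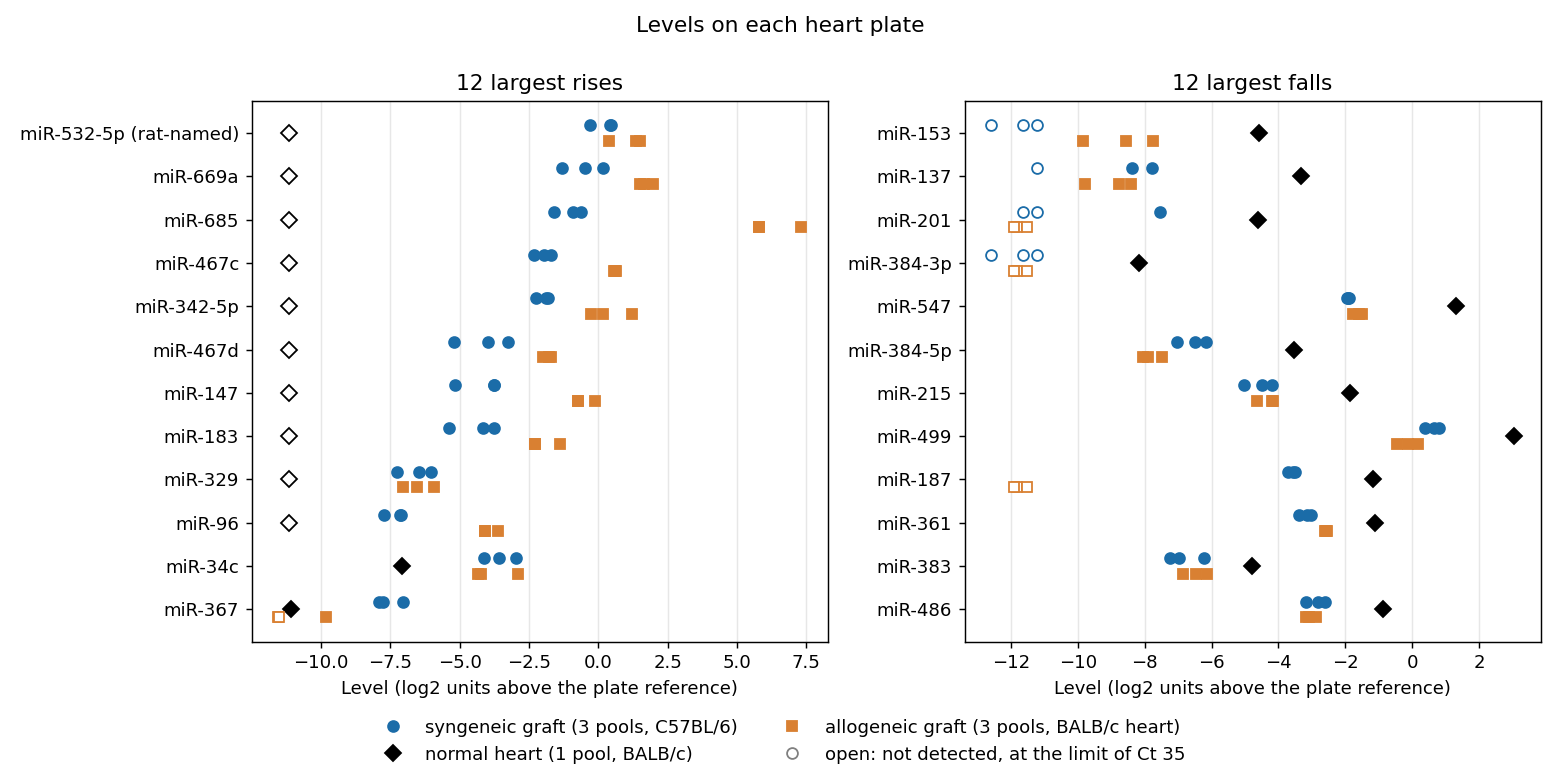
Levels of the 12 largest called rises and 12 largest called falls on each heart plate, in log2 units above the plate reference. Circles are syngeneic pools, the diamond is the normal pool, squares are allogeneic pools, and open symbols were not detected and stand at the limit of Ct 35. In 10 of the 12 rises the normal pool is at the limit, and miR-547 and miR-499 show tight syngeneic groups well below the normal pool.

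Of the microRNAs of cardiac injury and hypertrophy, 2 of 9 were called higher and none lower (list median 0.43). Of all assays tested, 11.6% were called higher and 7.44% lower. miR-21, which rises in injured myocardium and in cardiac fibroblasts, stood at 6.72, 6.40 and 6.63 against 3.37 in the normal pool. The difference was 3.21 ± 0.30 (adjusted p = 7.03e-04), 9.25-fold, and the SD of the syngeneic pools was 0.17. The call held under all 17 alternatives, and the allogeneic pools averaged 8.13. In the authors' deposited table the relative quantities of miR-21 were 15.02, 10.3 and 12.7. The other call was miR-34a, a p53 target linked to cardiac ageing and stress, at 1.35, 1.09 and 1.15 against −1.12 (2.32 ± 0.30, adjusted p = 0.00293).

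All 3 miR-34 assays on the card were called higher, beside 11.6% of all assays tested. The normal Ct of miR-34a (24.99) and miR-34c (30.94) lay just below a whole cycle. The alternative without such values could not test these 2 calls. miR-34b-3p stood at −0.24, −0.28 and 0.01 against −2.14, a difference of 1.97 ± 0.32 (adjusted p = 0.00585). miR-34c stood at −2.95, −4.13 and −3.56 against −7.08, a difference of 3.53 ± 0.69 (adjusted p = 0.0139). In allogeneic grafts miR-34a and miR-34c averaged 1.11 and −3.81, differences from the syngeneic mean of −0.09 and −0.27 that were not called, and miR-34b-3p averaged −1.17, which was called lower than the syngeneic mean (adjusted p = 0.0189). With scaling to MammU6 only miR-34c of the 3 stayed called, and under quantile normalization miR-34c lost its call (1.78). Other injury microRNAs were not called. miR-208b, the myosin-hosted microRNA that rises in failing hearts, stood at −3.86, −4.40 and −3.63 against −3.86, with a 95% interval of the difference from −1.26 to 1.06. miR-214 and miR-199a-3p, of fibroblasts, were not called at 1.26 ± 0.69 and 0.77 ± 0.41, and neither was miR-210, the main microRNA induced by low oxygen, at 0.96 ± 0.43 (adjusted p = 0.149). The matrix-repressing miR-29a, miR-29b and miR-29c were not called at −0.77, −0.74 and −1.15.

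The Sfmbt2 cluster, a rodent array of related hairpins in an intron of the Sfmbt2 gene, had 5 of 6 tested assays called higher and none lower. The share called higher over all assays was 11.6%. The detected members gave the more measured differences. miR-467a stood at −0.87, −1.02 and −1.45 against −3.12 (2.00 ± 0.39, adjusted p = 0.0139), and miR-467b at −0.53, 0.03 and −0.47 against −2.21 (1.89 ± 0.37, adjusted p = 0.0139). The miR-467a call was lost without syngeneic pool 2 (1.95). Its normal Ct (26.99) lay just below a whole cycle, and the alternative without such values could not test it. miR-467c, miR-467d and miR-669a were not detected on the normal plate and were higher by at least 567-, 127- and 1544-fold, with syngeneic Ct values from 22.2 to 29.0. These 3 assays were compared only because the syngeneic side detected them. They had to come out higher, and their calls add no support for the cluster. miR-467e was not called (0.92 ± 0.47). Mature sequences of this family are nearly alike, so an assay may read more than 1 member. With scaling to MammU6, 3 of the 5 calls were left, those of miR-467c, miR-467d and miR-669a.

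Assays at the limit on the normal plate need their plate values beside them. In all, 14 assays were detected on 3 of 3 syngeneic plates and not on the normal plate, and 10 of these were called. Each of these 10 was missing from the normal plate alone and had a mean Ct under 30 on the other 6 heart plates. The other plates had 0 to 3 such assays, the highest number being that of allogeneic pool 2. One of the 10, the rat-named miR-532-5p assay, stood at Ct 22.0, 22.9 and 24.1 in syngeneic grafts and was not detected on the normal plate, at least 2558-fold higher. The mouse-named assay for miR-532-5p read Ct 23.0 on that same plate. It stood at 1.01, 1.31 and 1.18 against 0.92, with a difference of 0.25 ± 0.36 (adjusted p = 0.639). The pair of assays for 1 microRNA thus gave different calls. miR-685 had syngeneic Ct values of 23.0, 25.0 and 24.7, at least 1089-fold higher, and allogeneic values from 15.8 to 17.7. miR-370, miR-193 and miR-294 were also missing from the normal plate, higher by at least 292-, 131- and 45.7-fold, and were not called (adjusted p = 0.120, 0.0834 and 0.170), each with 1 allogeneic pool at the limit as well. Assays missing from the normal plate were compared only because the syngeneic side detected them, so they had to come out higher and their calls add no support of their own. The part of this plate difference in the bounds was not tested. Of the 28 calls higher, 18 rest on assays detected on all 4 plates, and of the 18 calls lower, 14 do. The falls of miR-153 and miR-384-3p, detected on no syngeneic plate, had to come out lower. miR-137 and miR-201, detected on some syngeneic plates, were also compared only through the normal plate. The calls of these assays add no support of their own.

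**Figure D3:**
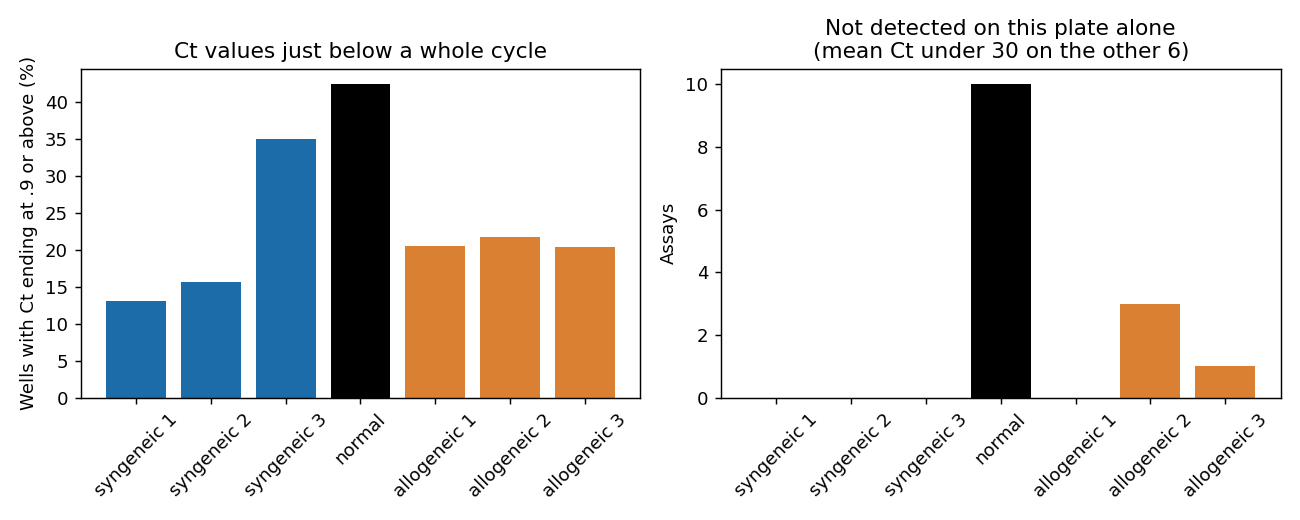
Left, percent of wells with a Ct whose decimal part is 0.9 or more, by heart plate. Right, number of assays not detected on that plate alone with a mean Ct under 30 on the other 6. The normal plate has the highest bar in both, with 42.4% and 10 assays.

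Between 228 (normal) and 260 assays (syngeneic pool 1) were detected per plate, and the reference mean ran from Ct 22.4 to 23.9. Ct values gathered just below whole cycles, in 42.4% of wells with a Ct on the normal plate, in 13.1% and 15.6% in syngeneic pools 1 and 2, in 84 of 240 in pool 3 and in 20.4% to 21.7% on the allogeneic plates. Among assays detected on the normal plate, this held for 12 of 18 called higher, 3 of 18 called lower and 82 of 192 not called. Without them, 145 assays were tested, with 17 called higher and 16 lower. The 17 included the 10 called assays not detected on the normal plate. This step could not leave these 10 out, and they had to come out higher. The part of normal Ct values just below a whole cycle in the calls was not tested further. Of the markers of other organs, miR-122 of liver was detected on none of the 7 plates, miR-124 of brain on none of the 4, and of these 4 plates miR-375 and miR-205 only on that of syngeneic pool 1. Less specific microRNAs of other organs were detected on the normal plate, among them miR-192 (Ct 23.0), miR-194 (Ct 23.9), miR-137 (Ct 27.2) and miR-153 (Ct 28.4), and are described with the falls.

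The Dlk1-Dio3 cluster, the large imprinted microRNA array on chromosome 12 that is active in development and in regenerating muscle, had 6 of 27 tested assays called higher and none lower. The share called higher over all assays was 11.6%. Of the 27 differences 25 were above 0, and the median was 1.29 beside −0.05 over all assays (0.37 to 1.72 over the 6 scalings). Among the 25 were miR-329 and miR-370, compared only because the syngeneic side detected them. They had to come out higher and add no support for the cluster. miR-329 was detected at Ct 28.4, 29.8 and 31.0 and not on the normal plate, at least 23.4-fold higher, and was not called with the limit at Ct 32 (1.57). miR-544 stood at −6.61, −5.92 and −6.46 against −9.12 (2.79 ± 0.38, adjusted p = 0.00327), a low level near Ct 30, and its sign turned under quantile normalization (−0.68). miR-543 and miR-495 lie 1469 bases apart. miR-543 stood at −3.60, −3.26 and −3.63 against −5.14 (1.65 ± 0.34, adjusted p = 0.0182). miR-495 stood at −2.61, −2.72 and −2.68 against −4.12 (1.45 ± 0.33, adjusted p = 0.0239). miR-380-5p and miR-337-3p were the remaining calls, at 1.78 and 1.50, and were lost without pool 1 (1.68 and 1.39) or pool 2 (1.76 and 1.39). The miR-495 call was lost without any 1 of the syngeneic pools (1.42 without pool 1, 1.47 without pool 2 or pool 3), and the miR-543 call without pool 2 (1.53). The normal Ct lay just below a whole cycle for miR-544 (32.99), miR-380-5p (30.97), miR-337-3p (29.97) and miR-495 (27.99). The alternative without such values could not test these calls. With scaling to MammU6 or to snoRNA135 with snoRNA202, 2 of the 6 calls were left, and under quantile normalization 1, with miR-543 at 0.90, miR-495 at 0.92, miR-337-3p at 0.33 and miR-380-5p at 0.06.

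A few further rises belonged to no larger group. miR-18a, of the proliferation-linked miR-17 to miR-92 cluster, stood at −0.49, −0.95 and −1.16 against −3.10, a difference of 2.23 ± 0.46 (adjusted p = 0.0171), which was lost without syngeneic pool 2 (2.27). It was the only call among 11 tested assays of that cluster and its paralogues, whose median was 0.51, beside 11.6% of all assays called higher. miR-135a, named after its values were seen, stood at −2.73, −2.31 and −2.04 in the syngeneic pools and −5.08 in the normal pool (2.72 ± 0.38, adjusted p = 0.00333). The allogeneic pools, which like the normal pool are BALB/c hearts, stood at −5.22, −5.70 and −5.35. Whether heart strain has a part in this was not tested. The allogeneic mean differed from the normal level by −0.34 ± 0.38 (adjusted p = 0.457) and from the syngeneic mean by −3.06 (adjusted p = 7.05e-04). miR-135a was called under all 16 alternatives that tested it. The alternative without normal Ct values just below a whole cycle could not test it, because its normal Ct was 28.95. miR-367, of the stem cell cluster with miR-302, was late on the syngeneic plates (Ct 30.1, 30.4 and 31.7) and the normal plate (34.9). Its difference of 3.53 ± 0.75 turned to −1.35 under quantile normalization and lost its call without syngeneic pool 2 (3.26). Its allogeneic mean also lay near the normal level (0.13, adjusted p = 0.872) and below the syngeneic mean (−3.40, adjusted p = 0.00458), with allogeneic pool 3 at the limit. miR-296-5p, also named after its values were seen, was 2.08 ± 0.35 higher (adjusted p = 0.00711). The normal Ct of miR-18a (26.97), miR-367 (34.95) and miR-296-5p (25.96) lay just below a whole cycle. The alternative without such values could not test them either.

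**Figure D4:**
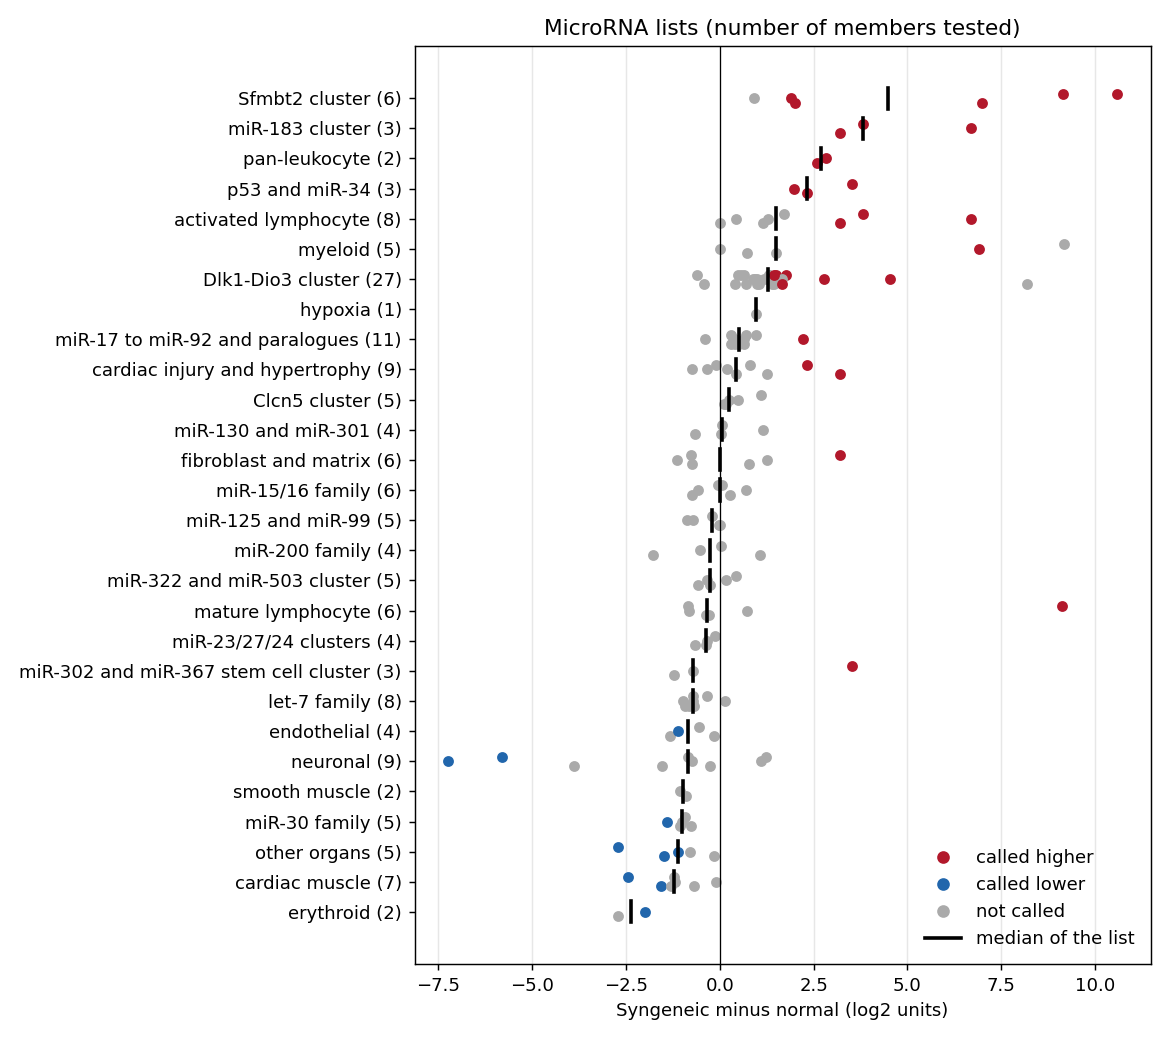
Difference between syngeneic grafts and normal heart, in log2 units, for the members of 28 microRNA lists, with the number tested in brackets. Points are assays (red called higher, blue called lower, grey not called), and bars are list medians. The Sfmbt2 and miR-183 lists lie highest and the erythroid and cardiac muscle lists lowest.

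Of 7 cardiac muscle microRNAs 2 were called lower in the grafts, beside 7.44% of all assays tested, and none higher. All 7 differences were negative, with a median of −1.21, although that of miR-208b turned positive with scaling to MammU6 or snoRNA202 (up to 0.34). miR-499, made from an intron of the slow myosin gene Myh7b, stood at 0.37, 0.65 and 0.81 in the syngeneic pools and 3.06 in the normal pool. The difference was −2.45 ± 0.36 (adjusted p = 0.00394), 5.46-fold lower, and the allogeneic mean was −0.14. In the authors' deposited table the relative quantities of miR-499 were 0.23, 0.239 and 0.279. miR-1, a microRNA of striated muscle, stood at 6.09, 6.99 and 6.78 against 8.18 (−1.56 ± 0.41, adjusted p = 0.0401). This call was lost without any 1 of the syngeneic pools, at −1.29 without pool 1, −1.74 without pool 2 and −1.62 without pool 3. It held under 2 of the 6 scalings, and the difference was −0.23 under quantile normalization. The rat-named miR-1 assay gave −1.80 ± 0.51 (adjusted p = 0.0535) and passed without pool 3 (−2.04). miR-133a stood at 10.33, 10.75 and 11.07 against 11.91 and missed the threshold (−1.20 ± 0.36, adjusted p = 0.0582), as did miR-208 (−1.95, −1.80 and −1.70 against −0.51, −1.31 ± 0.41, adjusted p = 0.0685) and miR-133b (−1.21 ± 0.72). Over the alternatives that tested them, the miR-133a difference ran from −1.36 to 0.00 and that of miR-133b from −1.47 to −0.14. miR-490 was not called (−0.69 ± 3.54), with allogeneic pool 2 at the limit. With scaling to MammU6, where the list's median was −0.87, neither call was left.

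Of 4 endothelial and 2 smooth muscle assays 1 was called lower, beside 7.44% of all assays tested, and none higher. miR-126-5p, from the endothelial gene Egfl7, stood at 5.43, 5.38 and 5.54 against 6.56, a difference of −1.11 ± 0.27 (adjusted p = 0.0320). Its call was lost without any 1 of the syngeneic pools (−1.10 without pool 1, −1.08 without pool 2, −1.14 without pool 3) and under all scalings but the main one (−0.67 with snoRNA202). The other arm, miR-126-3p, stood at 8.42, 8.38 and 8.86 against 9.89 and was not called (−1.33 ± 0.39, adjusted p = 0.0564). In smooth muscle, miR-145 stood at 6.86, 6.82 and 6.80 against 7.89 (−1.07 ± 0.34, adjusted p = 0.0685) and miR-143 at 3.63, 3.21 and 3.24 against 4.25 (−0.89 ± 0.36, adjusted p = 0.118), with no call. Over the alternatives that tested them, the miR-145 difference ran from −1.13 to 0.16 and that of miR-126-3p from −1.47 to −0.24.

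The miR-30 family, abundant in cardiomyocytes, had 1 of 5 assays called lower, beside 7.44% of all assays tested, and a median of −1.01. The call was miR-30b, at 6.61, 6.86 and 7.01 against 8.25 (−1.42 ± 0.33, adjusted p = 0.0276), which was lost without syngeneic pool 1 (−1.31) or pool 2 (−1.44). It held under 3 of the 6 scalings, with −0.18 under quantile normalization. miR-30a, miR-30c and miR-30e were not called, at −1.06, −0.92 and −1.01. Both arms of miR-384, whose 5p arm shares the miR-30 seed printed above, were called lower. miR-384-5p stood at −6.49, −7.04 and −6.17 against −3.53 (−3.03 ± 0.43, adjusted p = 0.00352), and the allogeneic pools averaged −7.81. miR-384-3p was detected on the normal plate at Ct 32.03 and on none of the 3 syngeneic or 3 allogeneic plates, at least 12.6-fold lower. Compared only through the normal plate, miR-384-3p had to come out lower.

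Among the falls, miR-547 had the tightest groups. It stood at −1.91, −1.95 and −1.90 in the syngeneic pools and 1.31 in the normal pool, a difference of −3.23 ± 0.28 (adjusted p = 5.93e-04), 9.39-fold lower, and was called under all 17 alternatives. The allogeneic pools stood at −1.77, −1.58 and −1.49. Its neighbour on the X chromosome, miR-201, was detected on the normal plate at Ct 28.5, in 1 of 3 syngeneic pools (Ct 29.9) and in no allogeneic pool. Its difference of −5.53 ± 1.48 (adjusted p = 0.0439) counts the others at the limit, and the call was lost without syngeneic pool 2 (−4.78) or pool 3 (−4.96). It held under 3 of the 6 scalings.

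The microRNAs of gut, liver and kidney that share the seed UGACCUA, and their neighbour, were lower. miR-215 stood at −5.03, −4.50 and −4.18 against −1.87 (−2.70 ± 0.42, adjusted p = 0.00479). miR-192 stood at −0.89, −0.57 and −0.33 against 0.89 (−1.49 ± 0.33, adjusted p = 0.0227). miR-194 stood at −1.11, −1.23 and −1.21 against −0.06 (−1.12 ± 0.29, adjusted p = 0.0390). The miR-194 call was lost without any 1 of the syngeneic pools (−1.15 without pool 1, −1.09 without pool 2 or pool 3), and that of miR-192 without pool 1 (−1.34) or pool 2 (−1.50). With scaling to MammU6 none of the 3 was called, and miR-194, at −0.68 with snoRNA202, was called under 2 of the 6 scalings. These were the only calls among 5 tested microRNAs of other organs, and the differences of miR-203 and miR-184 were −0.14 and −0.78. Of all assays tested, 7.44% were called lower.

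Of 9 neuronal assays 2 were called lower, beside 7.44% of all assays tested, none higher, and the median was −0.86. Both called assays passed the filter only through the normal plate, so neither call adds support of its own, and miR-153 had to come out lower. miR-153, of brain and endocrine cells, was detected on the normal plate at Ct 28.4 and on none of the 3 syngeneic plates, at least 152-fold lower, while the allogeneic plates read Ct 30.9 to 33.0. miR-137 was detected on the normal plate at Ct 27.2 and in 2 of 3 syngeneic pools at Ct 30.2 and 31.7 (−5.80 ± 1.29, adjusted p = 0.0233). miR-9 was not called (−1.53 ± 0.46, adjusted p = 0.0582), and neither was miR-7a (1.09 ± 0.35). The size of the miR-137 difference depends on syngeneic pool 3, which stands at the limit.

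Other called falls came from single hairpins. miR-187 stood at −3.56, −3.72 and −3.52 against −1.17 (−2.43 ± 0.30, adjusted p = 0.00247) and was detected on none of the 3 allogeneic plates. miR-361 stood at −3.15, −3.40 and −3.03 against −1.11 (−2.09 ± 0.29, adjusted p = 0.00333). miR-383 stood at −6.22, −6.99 and −7.24 against −4.80 (−2.02 ± 0.49, adjusted p = 0.0320), and the call was lost without syngeneic pool 2 (−1.93) or pool 3 (−1.79). It held under 3 of the 6 scalings and was −3.54 under quantile normalization. miR-204, named after its values were seen, was 1.39, 2.06 and 2.08 against 3.39 (−1.55 ± 0.40, adjusted p = 0.0401), a call lost without any 1 of the syngeneic pools (−1.32 without pool 1, −1.66 without pool 2, −1.65 without pool 3) and held under 2 of the 6 scalings.

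Of the erythroid list, miR-486 was called lower at −2.83, −2.62 and −3.19 against −0.87 (−2.01 ± 0.33, adjusted p = 0.00674). Whole-heart RNA does not show which cells the miR-486 signal came from. miR-451, the most abundant microRNA of red cells, varied widely between pools (SD 1.39). It stood at 1.59, −1.20 and 0.17 against 2.91 in the normal pool and was not called (−2.72 ± 1.02, adjusted p = 0.103), but passed without syngeneic pool 1 (−3.42). The allogeneic pools stood at 4.14, 4.82 and 3.56.

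Some uncalled differences had syngeneic pools far apart, and for miR-504 and miR-881 this spread comes from pools at the detection limit. miR-582-5p, named with the next assays after their values were seen, stood at −5.67, −6.62 and −3.49 against −1.65 (−3.61 ± 1.08, adjusted p = 0.0582), and passed without syngeneic pool 3 (−4.48). miR-582-3p, from the same hairpin, stood at −6.80, −8.01 and −4.29 against −3.04 and passed without pool 3 as well (−4.35). miR-504 was detected on the normal plate (Ct 26.0) and in syngeneic pool 3 (Ct 26.4) and on no other heart plate. miR-881 was detected on the normal plate and in syngeneic pool 1 and on no other heart plate (−3.45 ± 2.19, and −5.40 without pool 1, which passed). In miR-582 and miR-504 it was thus pool 3, and in miR-881 pool 1, that lay nearest the normal level.

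Several widely expressed families held no call, beside 46 of all 242 assays called (19.0%). At that share an empty list of a few assays is no result about its family, and a missing call does not show equal levels. None of 8 let-7 assays was called, with differences from −0.97 to 0.14, 1 of them above 0, and a median of −0.72. The same held for 6 assays of the miR-15 and miR-16 family, where miR-16 stood at 5.96, 5.86 and 6.02 against 5.88, a difference of 0.06 with a 95% interval from −0.66 to 0.78. None of 5 assays of the miR-125 and miR-99 list was called, and miR-125a-5p differed by 0.01 (95% interval −0.72 to 0.73). The miR-23/27/24 clusters (4 assays), the miR-322 and miR-503 cluster (5), the miR-130 and miR-301 list (4), the miR-200 family (4) and the Clcn5 cluster (5) held none either in limma's test, where 97 of all 242 assays had an unadjusted p under 0.05. Scaling to MammU6 or snoRNA202 turned the sign of the medians of the miR-125 and miR-99, miR-200 and miR-322 lists, and scaling to snoRNA202 called 1 assay of the miR-130 and miR-301 list (miR-130b, 1.58). The small RNA controls, which were not tested, differed by −0.34 (MammU6), −0.40 (U87), −0.39 (Y1), 0.57 (snoRNA135) and −0.44 (snoRNA202).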

How the data were processed

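Per the labels, RNA came from a mirVana isolation, was copied and preamplified with Megaplex primers and was measured on a 7900HT thermocycler. The deposited Ct values (an inverted log2 scale) and the relative quantity, a ratio to the normal pool after subtracting snoRNA202, were exported by the authors from SDS 2.4, per the file headers. Baseline and threshold settings are not given in the sources used here. Levels were recomputed from Ct as minus the Ct after subtracting the mean of the 210 reference assays, with a limit of Ct 35. The let-7b well of allogeneic pool 2, which carried another plate name, was left out. The test was limma's (version 3.58.1, under R 4.3.3; lmFit, eBayes, 3 groups, two-sided), with Benjamini-Hochberg adjustment over the 242 assays and calls under 0.05. The SE of a bound holds no variation of the undetected side. The number of pools limits the precision. The script was tested on simulated data. Scaling, limit, filter, fit, pools and run day were varied (17 alternatives).

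The members and lists were chosen with earlier results of these data known. The named assays were the 12 largest called rises and 12 largest called falls with the normal value outside the syngeneic range, the 4 or fewer smallest p in each list, both miR-142 assays, the cardiac muscle assays and the controls. Others (let-7 and miR-16, for example) were named after their values were seen. Arm names were matched by hand, and 42 of 57 assays looked up had a RefSeq sequence. The lymphocyte plates were not used here.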

Additional observations from a re-analysis of the deposited data

How the results depend on the processing

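Against 46 calls (28 higher, 18 lower), scaling to MammU6 gave 24 calls with 4 lower, scaling to snoRNA202 gave 10 lower and a prior with intensity trend gave 28 lower. Leaving out normal Ct values just below a whole cycle, an alternative added after seeing the data, gave 17 higher among 145 assays tested. Of these 17 rises, 10 were assays not detected on the normal plate, which had to come out higher. Leaving out 1 syngeneic pool gave 31 to 48 calls, with 21 to 32 higher and 10 to 18 lower. The lowest were without syngeneic pool 2. Quantile normalization turned miR-367 to −1.35 and miR-544 to −0.68. The cause of these changes was not tested, except that fewer assays or pools entered some fits. With run day as a random block 46 assays were called (consensus correlation −0.04). This fit cannot separate run day from the normal group, because the normal plate was alone on its run day. Under all 6 scalings 14 rises and 4 falls were called (miR-547, miR-384-3p, miR-137 and miR-153), but 9 of these rises and 2 of the falls have a side at the detection limit, which scaling can hardly move. A fit on the 4 plates alone lost 9 of the 46 calls: miR-1, miR-126-5p, miR-137, miR-192, miR-194, miR-201, miR-204, miR-383 and miR-337-3p. No paired analysis was possible because the normal pool carries no replicate number and is a single plate. The detection limit sets the size of every bound.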
